A study of Mus musculus with 12 samples.

Results

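The Notch genes described here were 10 of the 23725 genes in the deposited table: the receptors Notch1, Notch2 and Notch3, the ligands Dll1, Dll4 and Jag1, and the target genes Hes1, Hes5, Hey1 and Hey2. They were taken by their symbols, and all 10 passed the filter on low values. RNA was sequenced from the subventricular zone (SVZ) of male wild-type mice, the stem cell layer beside the lateral ventricle of the adult brain. The ages were 2, 6, 18 and 22 months, with 3 libraries at each age and 12 in all. The zone was dissected and broken up into single cells, and total RNA was taken with Trizol. The labels name the strain C57BL/6 at 2 months and no strain at the other ages, and they name no treatment. They do not say whether libraries of the same age were separate animals, so the p-values rest on the spread among the libraries alone, and that spread may be technical. Each library mixes all cells of the zone, so fewer cells of a type and less RNA per cell cannot be told apart. Non-monotonic change with age is named in the title, and the comparisons ask at which ages the Notch genes differed and whether any of them turned.

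Notch receptors sit in the cell membrane and are activated by a Delta or Jagged ligand on a neighbouring cell. ADAM proteases and the gamma-secretase complex then release the receptor's intracellular domain, which binds RBPJ in the nucleus and switches on Hes and Hey genes, whose proteins repress other genes. In the adult SVZ the pathway is known for keeping neural stem cells undifferentiated, and in blood vessels Dll4 and Notch1 guide the growth of endothelium.

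RBPJ binds DNA at the core TGGGAA, so the 250 bases before annotated transcript starts of the Notch genes were searched for it on both strands (the other strand reads TTCCCA). RefSeq promoters on GRCm38.p6 were matched for 8 of the 10 genes in 9 windows, since Dll1 had a pair of starts. The Hes5 window and a Dll1 window lie within the full span of their gene, whose outermost start is further upstream, and Hes1 and Hey1 were not matched. The core was in 2 of the 9 windows, those of Hes5 and Hey2. Across all 32851 windows of this length, 21.6% held the core and 2.77% held it 2 times or more. Those windows are shown with the core in capitals, and those of Dll4 and Jag1 are shown beside them as ligand promoters with no match. The Hes5 window is chr4:154960673-154960922 on the plus strand, and its cores begin 226 and 82 bases before the start. The Hey2 window is chr10:30842784-30843033 on the minus strand, with its core 207 bases before the start. The Dll4 window is chr2:119325534-119325783 on the plus strand and the Jag1 window is chr2:137116521-137116770 on the minus strand.
Hes5: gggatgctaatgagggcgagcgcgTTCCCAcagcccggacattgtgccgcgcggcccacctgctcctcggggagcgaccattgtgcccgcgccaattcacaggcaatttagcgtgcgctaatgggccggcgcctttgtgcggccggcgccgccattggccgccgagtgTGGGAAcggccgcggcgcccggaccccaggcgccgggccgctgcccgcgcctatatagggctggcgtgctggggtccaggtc
Hey2: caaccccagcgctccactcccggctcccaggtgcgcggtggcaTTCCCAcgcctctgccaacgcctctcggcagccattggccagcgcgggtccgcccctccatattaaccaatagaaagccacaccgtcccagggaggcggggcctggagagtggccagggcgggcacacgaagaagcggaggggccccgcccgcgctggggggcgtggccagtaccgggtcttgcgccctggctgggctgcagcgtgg
Dll4: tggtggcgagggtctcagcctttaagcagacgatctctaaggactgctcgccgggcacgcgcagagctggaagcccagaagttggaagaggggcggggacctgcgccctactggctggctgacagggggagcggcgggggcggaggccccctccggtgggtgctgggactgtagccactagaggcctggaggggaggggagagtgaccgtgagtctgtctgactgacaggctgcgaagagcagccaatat
Jag1: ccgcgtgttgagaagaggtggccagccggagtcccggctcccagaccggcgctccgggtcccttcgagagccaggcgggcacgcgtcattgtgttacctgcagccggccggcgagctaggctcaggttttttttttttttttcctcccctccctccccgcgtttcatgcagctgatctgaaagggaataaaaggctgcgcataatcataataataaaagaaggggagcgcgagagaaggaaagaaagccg
The N-box, the motif CACNAG that Hes proteins bind, was in 36.7% of all windows (both strands, and overlap with the RBPJ core was allowed). It was found in the windows of Notch1, Notch2, Notch3 and Dll4 and in no other window of the Notch genes. A match describes these letters only, since no binding was measured.

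The values are normalised counts, in which the authors divided the reads of a gene by a size factor of the library. The libraries held 6381390 to 15962517 reads. A gene with no read could have had up to 3 reads, or 1.74 to 4.41 normalised counts depending on the library. Every value of the Notch genes was above this limit, the lowest being 19.2 for Hes1. These limits cover counting error only. The 22-month libraries stood apart in the length of the transcripts they held. Reads on transcripts longer than 6000 nt made up 24.2% ± 0.617 (SD, n = 3) at the age of 2 months. They made up 23.5% ± 1.27 at 6 months, 23.6% ± 1.12 at 18 months, but 20.0% ± 0.233 at 22 months. Reads on transcripts shorter than 1500 nt made up 5.56% ± 0.169, 5.84% ± 0.320, 5.95% ± 0.298 and 6.93% ± 0.0501 in the same order. Results that involve 22 months are therefore also given after a smooth trend of the fold change over transcript length had been subtracted. No listed marker of astrocytes, dividing progenitors, neuroblasts, ependymal cells, endothelium, pericytes or microglia was at 0 in all libraries. The same held for listed markers of choroid plexus, meninges and striatal neurons, so this does not set SVZ cells apart from neighbouring tissue. Markers of striatal neurons, which lie beside the SVZ, summed to 34695 to 38317 normalised counts at 2 months and 43233 to 45777 at 22 months, with no overlap.

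Per length of transcript, Hey1 was the highest of the 10 genes and Dll4 the lowest. Hey1, a repressor of the Hairy family that is also found in endothelium, had 257 ± 30.9 normalised counts per kb (SD, n = 12 libraries), ranging from 225 to 325. Hes5, a target typical of neural stem cells and astrocytes, followed with 122 ± 32.1. Notch1 was the highest receptor with 54.2 ± 8.16. Dll1 with 38.3 ± 4.55 and Notch2 with 37.2 ± 5.60 were closer to each other than their spread over libraries. Notch3 with 28.8 ± 3.46, Jag1 with 26.0 ± 4.15, Hes1 with 25.9 ± 8.43 and Hey2 with 21.7 ± 2.21 also overlapped with their neighbours in this order. Dll4 had 10.2 ± 3.67. Hes1, with 24 to 60 reads per library, and Dll4, with 25 to 62, rested on the fewest reads of the 10 genes.

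**Figure D1:**
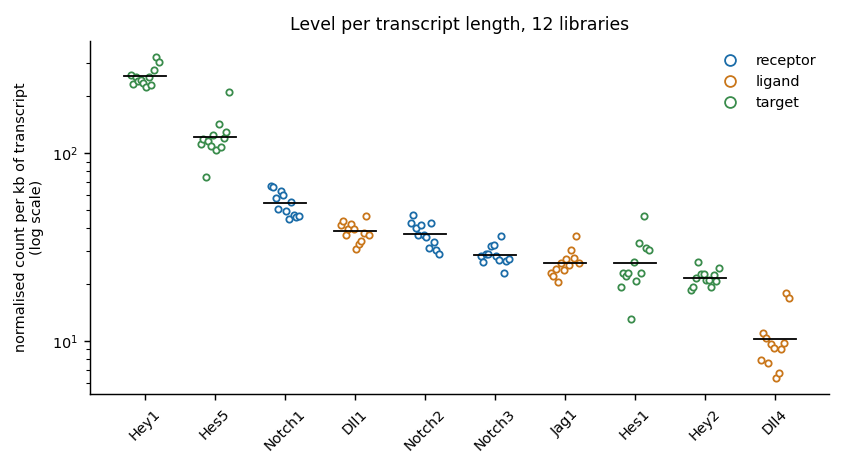
Normalised counts per kb of the longest transcript (log axis) of the 10 Notch genes, with 1 point per library (12 per gene, coloured by role) and a bar at the mean. Hey1 (mean 257) and Hes5 (mean 122) lie above the receptors, and Dll4 (mean 10.2) lies lowest.

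Of the receptors, Notch1 and Notch2 were lower at 22 than at 2 months, and Notch3 did not pass the test at any age. Notch1, the receptor of neural stem cells and endothelium (chr2:26457902-26503822), had 633, 627 and 543 normalised counts at 2 months and 477, 593 and 566 at 6 months, with values of each age given in the order of replicates 1 to 3 here and for the other Notch genes. It had 469, 425 and 522 at 18 months and 442, 432 and 438 at 22 months. Every library of 18 and 22 months lay below every library of 2 months, while the 6- and 18-month libraries overlapped. Notch1 fell by 27.1% from 2 to 22 months (log2 fold change -0.46 ± 0.09 SE, limma adjusted p = 0.00113). It was already lower at 18 months (-0.35 ± 0.09, adjusted p = 0.0255), and it was lower at 22 than at 6 months (-0.31 ± 0.09, adjusted p = 0.0214). The step from 18 to 22 months did not pass (-0.10, adjusted p = 0.454). The call at 18 against 2 months was lost without replicate 1 or 2 of 2 months and without replicate 1 or 2 of 18 months. That at 22 against 6 months was lost without replicate 2 or 3 of either age.

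Notch2, another receptor of quiescent neural stem cells (chr3:98013538-98150367), had 444, 493 and 417 normalised counts at 2 months and 383, 436 and 387 at 6 months. It had 375, 327 and 448 at 18 months and 351, 320 and 303 at 22 months. The 22-month libraries all lay below those of 2 and 6 months, and the 18-month libraries spread across the range of the other ages. Notch2 fell by 28.0% from 2 to 22 months (-0.47 ± 0.10, limma adjusted p = 0.00213). It was also lower at 22 than at 6 months (-0.31 ± 0.10, adjusted p = 0.0413), a call lost without replicate 1 of 2 months and without replicate 2 or 3 of 6 or of 22 months. Over the 12 libraries its log2 values and those of Notch1 had a Pearson correlation of 0.90, given as a description, since the libraries share age and the share of long transcripts.

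Notch3, the receptor of pericytes and vascular smooth muscle (chr17:32120820-32166896), had 227, 212 and 232 normalised counts at 2 months and 233, 257 and 261 at 6 months. It had 226, 216 and 291 at 18 months and 184, 214 and 219 at 22 months. The 22-month libraries lay below those of 6 months with no overlap and overlapped with those of 2 months. No comparison of Notch3 passed. At 22 against 2 months its log2 fold change was -0.12 with a 95% interval of -0.35 to 0.11 (adjusted p = 0.404). The summed level of 9 pericyte and smooth muscle markers was 2387 to 2688 at 2 months and 2571 to 2603 at 22 months. Of these 9 markers, 2 passed as higher and 3 as lower between those ages in limma. Of all tested genes 18.4% passed as higher and 17.2% as lower there.

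**Figure D2:**
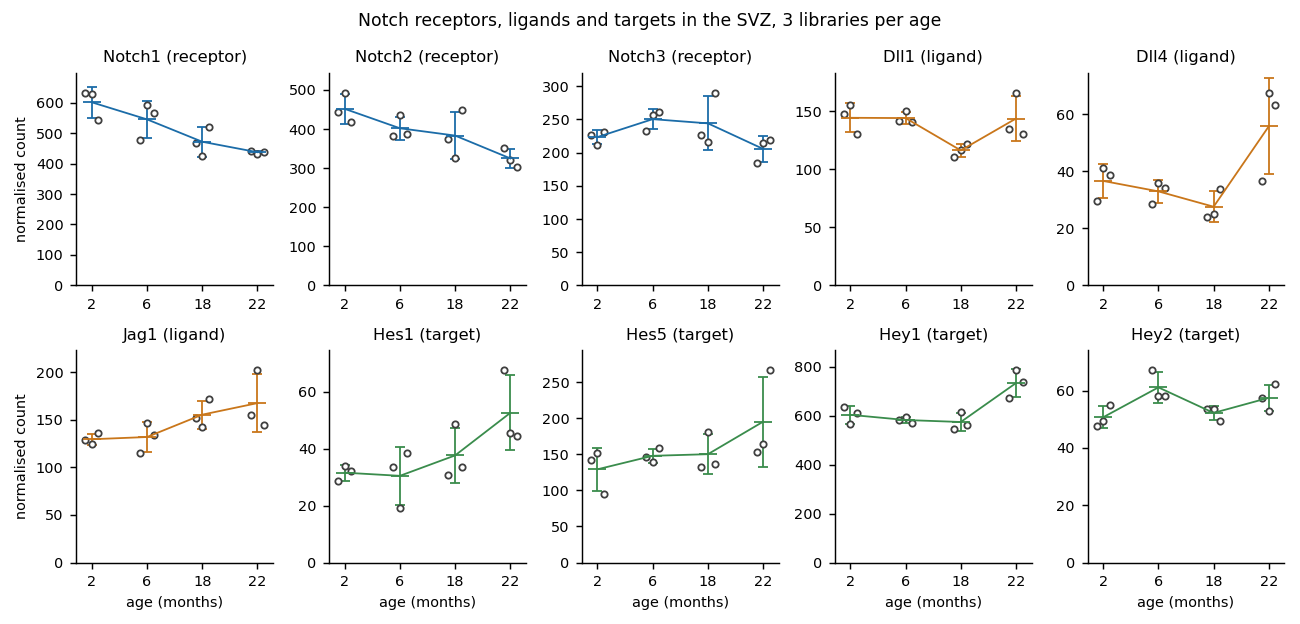
Normalised counts of the 10 Notch genes at 2, 6, 18 and 22 months (linear axes from 0), with 1 point per library, the mean of the 3 libraries of an age as a dash and the SD as the bar. Notch1 and Notch2 are lowest at 22 months, Dll4 and Hey1 are highest there, and Dll1 dips at 18 months with libraries at 111, 117 and 121.

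Of the ligands, Dll4 was higher at 22 than at 18 months, Jag1 was higher at 22 than at 2 months, and Dll1 did not pass in any comparison. Dll4, the ligand of arterial and sprouting endothelium (chr2:119325784-119335666), had 29.7, 41.3 and 38.8 normalised counts at 2 months and 28.5, 36.0 and 34.3 at 6 months. It had 23.8, 25.1 and 33.7 at 18 months and 36.5, 67.6 and 63.2 at 22 months. All 22-month libraries lay above those of 18 and 6 months, although replicate 1 stayed within the range of the 2-month libraries. Dll4 rose by 94.3% from 18 to 22 months (0.96 ± 0.23, limma adjusted p = 0.0100), the largest step of any of the 10 genes between neighbouring ages. Without replicate 2 of 22 months the adjusted p was 0.0519. Against 6 months the difference was 0.70 ± 0.23 (adjusted p = 0.0405), a call lost without any 1 library of 6 months and without replicate 2 or 3 of 22 months. This call held in 4 of 9 other settings and was lost in DESeq2 among others. Against 2 months Dll4 did not pass (0.56 ± 0.23, adjusted p = 0.0730). The summed level of 10 endothelial markers was 1176 to 1421 at 18 months and 1330 to 1541 at 22 months. Between these ages 1 of the 10 passed as higher, where 8.63% of all genes did. The part of endothelium in the Dll4 result was not tested.

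Dll1, a ligand carried by activated stem cells and transit-amplifying progenitors (chr17:15367354-15376932), had 147, 155 and 130 normalised counts at 2 months and 142, 150 and 141 at 6 months. It had 111, 117 and 121 at 18 months and 134, 166 and 130 at 22 months. The 18-month libraries lay below all 9 libraries of the other ages. At 18 months against the mean of 6 and 22 months the difference was -0.30 ± 0.10, with an unadjusted p of 0.00620 in limma and an adjusted p of 0.112, so the dip did not pass. At 22 against 2 months it was -0.01, with a 95% interval of -0.25 to 0.22. The sum of 7 markers of dividing progenitors was 1368 to 1472 at 2 months, 643 to 1024 at 6 months, 494 to 582 at 18 months and 316 to 498 at 22 months. That of 8 neuroblast markers was 13110 to 14194 at 2 months and 12154 to 13089 at 6 months. It was lowest at 18 months, with 11176 to 11717, and was 11805 to 12853 at 22 months. The part of these cells in the Dll1 values was not tested.

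Jag1, a ligand of astrocytes, ependymal cells and vessels (chr2:137081451-137116520), had 128, 125 and 136 normalised counts at 2 months and 115, 146 and 134 at 6 months. It had 152, 143 and 172 at 18 months and 155, 203 and 145 at 22 months. Every library of 18 and 22 months lay above every library of 2 months, and replicate 2 of 6 months fell among them. Jag1 rose by 27.8% from 2 to 22 months (0.35 ± 0.13, limma adjusted p = 0.0414). Over both older ages against both younger ages it was higher by 0.30 ± 0.09 (adjusted p = 0.0271). The first call was lost in edgeR and DESeq2, with no filter, with no intensity trend and with only the compared ages in the fit, so it held in 4 of 9 other settings. It was also lost without any 1 library of 2 months, without replicate 3 of 6 months and without replicate 2 of 22 months, which held the value of 203. The second was lost without replicate 1 or 2 of 2 months, replicate 1 of 6 months, replicate 3 of 18 months or replicate 2 of 22 months.

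Of the targets, Hes1, Hes5 and Hey1 were higher at 22 than at 2 months, and Hey2 did not pass in any comparison. Hes1, the repressor that holds back proneural genes in progenitors and quiescent stem cells (chr16:30065357-30067796), had 28.5, 33.9 and 32.3 normalised counts at 2 months and 33.6, 19.2 and 38.7 at 6 months. It had 30.6, 48.6 and 33.7 at 18 months and 67.8, 45.5 and 44.5 at 22 months. The 22-month libraries all lay above those of 2 and 6 months and overlapped with those of 18 months through replicate 2 of that age. Hes1 rose by 61.9% from 2 to 22 months (0.69 ± 0.25, limma adjusted p = 0.0421) and was higher at 22 than at 6 months (0.80 ± 0.25, adjusted p = 0.0324). The first call held in 3 of 9 other settings and was lost in edgeR and DESeq2 among others. It was also lost without any 1 library of 2 months and without replicate 1 or 2 of 22 months. The second was lost without replicate 2 of 6 months or replicate 1 of 22 months.

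Hes5, a Notch target of neural stem cells and astrocytes (chr4:154960626-154962372), had 141, 151 and 94.8 normalised counts at 2 months and 147, 139 and 158 at 6 months. It had 132, 182 and 137 at 18 months and 154, 165 and 267 at 22 months. Replicate 3 was the lowest library at 2 months and the highest at 22 months. Hes5 rose by 49.0% from 2 to 22 months (0.58 ± 0.19, limma adjusted p = 0.0289), and this call was lost without either of those libraries. The promoter with a pair of RBPJ cores shown above belongs to this gene.

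Hey1 (chr3:8663359-8667038) was higher at 22 months than at each younger age. It had 633, 564 and 612 normalised counts at 2 months, 584, 593 and 569 at 6 months and 546, 615 and 560 at 18 months. At 22 months it had 673, 787 and 738. The 22-month libraries lay above all 9 younger libraries, which overlapped with each other. Hey1 rose by 27.6% from 18 to 22 months (0.35 ± 0.07, limma adjusted p = 0.00348). At 22 months it was higher than at 2 months (0.28 ± 0.07, adjusted p = 0.00617) and than at 6 months (0.33 ± 0.07, adjusted p = 0.00433), and all 3 of these calls held with any 1 library left out. Across the 12 libraries its log2 values and those of Dll4 had a Pearson correlation of 0.78, given as a description.

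Hey2, a relative of Hey1 known from arterial endothelium and smooth muscle (chr10:30832359-30842783), had 47.5, 49.5 and 55.0 normalised counts at 2 months and 67.3, 58.1 and 58.0 at 6 months. It had 53.6, 53.5 and 49.5 at 18 months and 57.4, 52.9 and 62.1 at 22 months. The 6-month libraries lay above those of 2 and 18 months with no overlap. The difference at 22 against 2 months was 0.18 with a 95% interval of -0.12 to 0.48 (adjusted p = 0.353).

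Counted by comparison, the calls among the 10 genes gathered at 22 months, as did the calls among all tested genes. At 6 against 2 months 0 of 10 passed in limma, and edgeR and DESeq2 also called 0, while 0.926% of all 15663 tested genes passed. An unadjusted limma p under 0.05 was reached by 0 of 10 and by 2405 of all tested genes. At 18 against 6 months 0 of 10 passed in all 3 tools, and 0.153% of all genes passed. There 2 of 10 had an unadjusted limma p under 0.05, as did 1440 of all 15663 tested genes. At 22 against 18 months 2 of 10 passed, both higher (Dll4 and Hey1), where 18.9% of all genes passed and 8.63% passed as higher. At 22 against 2 months 6 of 10 passed, where 35.7% of all genes passed, while edgeR and DESeq2 each called 4 of 10 (Notch1, Notch2, Hes5 and Hey1). The 4 that rose compare with 18.4% of all genes that were higher, and the 2 that fell compare with 17.2% that were lower. The median log2 fold change of the 10 genes in that comparison was 0.23, against 0.02 over all tested genes.

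At 18 against 2 months 1 of 10 passed, Notch1, where 7.28% of all genes passed and 3.35% passed as lower. At 22 against 6 months 5 of 10 passed, 3 higher and 2 lower, where 22.2% of all genes passed, 10.6% as higher and 11.6% as lower. With 18 and 22 months set against 2 and 6 months, 4 of 10 passed, where 23.9% of all genes passed, 11.8% as higher and 12.1% as lower. These were Jag1 and Hes1, which rose (Hes1 by 0.51 ± 0.18, limma adjusted p = 0.0484), and Notch1 (-0.33 ± 0.06, adjusted p = 0.00190) and Notch2 (-0.28 ± 0.07, adjusted p = 0.0123), which fell. The Hes1 call held with 3 of the 12 libraries left out singly and was lost with the other 9. It held in 2 of 8 other settings and was lost in DESeq2 and with TMM scaling among others. For a turn at 18 months against the mean of 6 and 22 months, 0 of 10 passed in limma, edgeR and DESeq2. Of all genes 1.45% passed. An unadjusted limma p under 0.05 was reached by 3 of 10 (Dll1, Dll4 and Hey1, all lower at 18 months). It was also reached by 2937 of all 15663 tested genes. An F test for any difference among the ages passed for 4 of 10 (Notch1, Notch2, Dll4 and Hey1), where 31.5% of all genes passed. These comparisons share libraries, so their counts are not separate evidence.

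Genes whose libraries did not overlap between ages were also counted. At 22 against 2 months 6 of the 10 genes did not overlap, where 46.4% of all tested genes did not. The share of all genes was 37.2% at 22 against 6 months and 34.7% at 22 against 18 months, and the Notch genes numbered 6 and 3. At 18 against 2 months it was 27.6% against 3 Notch genes (Jag1 higher, Notch1 and Dll1 lower). At 6 against 2 months it was 22.7% against 2 (Notch3 and Hey2, higher), and at 18 against 6 months 16.2% against 2 (Dll1 and Hey2, lower). At 18 months against 6 and 22 months together it was 3.95%, and Dll1 was the Notch gene below both ages.

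The fold changes at 22 months ran with transcript length, and the receptors are the longest transcripts of the 10 genes and the Hes genes the shortest. The longest transcripts measured 9488 nt for Notch1, 10500 nt for Notch2 and 8016 nt for Notch3, against 1468 nt for Hes1 and 1273 nt for Hes5. Over all genes at 22 against 2 months, the 2183 genes with transcripts over 6000 nt had a median log2 fold change of -0.29, with 58.7% passing as lower and 3.07% as higher. The 1609 genes under 1500 nt had a median of 0.28, with 41.0% passing as higher and 1.80% as lower. After the trend over length was subtracted, Notch1 had -0.09 (limma adjusted p = 0.297) and Notch2 -0.06 (adjusted p = 0.615). Hes1 had 0.47 (adjusted p = 0.186), Hes5 0.32 (adjusted p = 0.235) and Hey1 0.15 (adjusted p = 0.104), so 5 of the 6 calls at 22 against 2 months were lost. Jag1, with a transcript of 5612 nt, had 0.49 (adjusted p = 0.00860) and still passed, although without this correction its call was lost in edgeR and DESeq2.

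**Figure D3:**
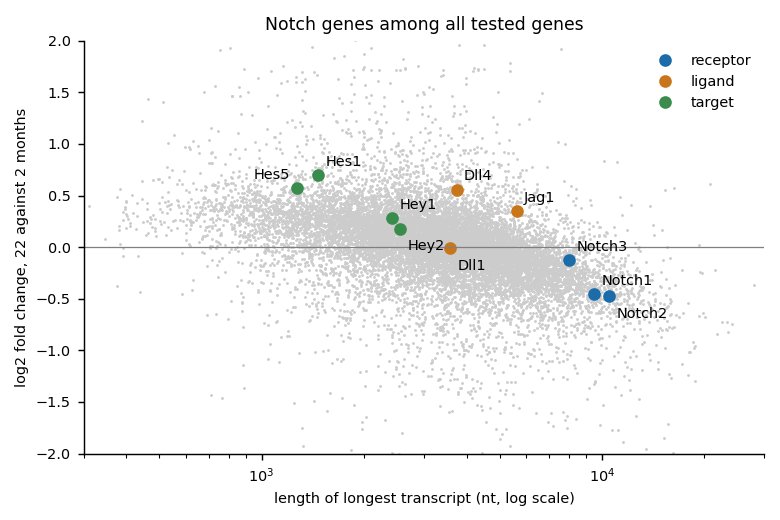
Log2 fold change at 22 against 2 months against the length of the longest transcript (nt, log axis) for all tested genes with a length (grey, 64 genes outside the axes not drawn) and the 10 Notch genes (coloured by role). The cloud slopes downward, with Hes1 and Hes5 at its upper left, Notch1 and Notch2 at its lower right, and Jag1 and Dll4 above its middle.

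Other calls differed in how they stood with the trend removed. At 22 against 18 months both were kept: Dll4 had 0.94 (limma adjusted p = 0.0187) and Hey1 0.25 (adjusted p = 0.0236). In that comparison the sign of Notch1 turned from -0.10 to 0.20 ± 0.06 (adjusted p = 0.0507). That of Notch2 turned from -0.23 to 0.12 (adjusted p = 0.399), Notch3 had -0.01, and none of these receptors passed. Notch1 at 18 against 6 months was then -0.21 (adjusted p = 0.194). At 18 months against the mean of 6 and 22 months Notch1 had -0.20 ± 0.05 (adjusted p = 0.0762) and did not pass. At 22 against 6 months Hey1 was kept with 0.22 (adjusted p = 0.0305), Jag1 now passed with 0.45 (adjusted p = 0.0256), and Dll4 had 0.69 (adjusted p = 0.0636). Notch1 had -0.01 there, Hes1 0.62 (adjusted p = 0.117), and the sign of Notch2 turned to 0.04 (adjusted p = 0.816). Where 22 months was not involved, Notch1 at 18 against 2 months was -0.29 (adjusted p = 0.00736) and kept its call. With both older ages against both younger ages, Notch1 had -0.15 (adjusted p = 0.0266) and Jag1 0.37 (adjusted p = 0.00872), and both passed, while Notch2 with -0.07 and Hes1 with 0.39 (adjusted p = 0.145) did not. Age and the length profile of the libraries cannot be told apart at 22 months, since all 3 libraries of that age share it.

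**Figure D4:**
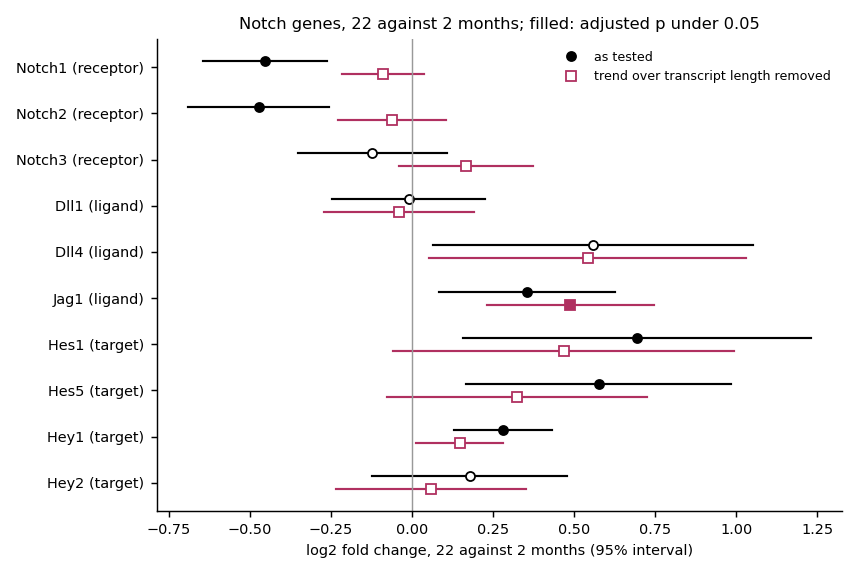
Log2 fold change of each Notch gene at 22 against 2 months with its 95% interval, as tested (black circles) and with the trend over transcript length removed (red squares), where filled symbols have an adjusted p under 0.05. The receptors move to between -0.09 and 0.17 with the trend removed, and Jag1 is filled in both.

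Markers of several cell types moved at the same ages. The summed level of 6 ependymal markers was 1142 to 1300 normalised counts at 2 months and 1563 to 1765 at 22 months, with 4 of 6 passing as higher in limma. The sum of 7 microglial markers was 2915 to 3075 at 2 months and 4004 to 4612 at 22 months, with 4 of 7 higher. All 7 markers of dividing progenitors were lower, as were 6 of 8 neuroblast markers, whose sum was 13110 to 14194 at 2 months and 11805 to 12853 at 22 months. Of 9 astrocyte markers 5 were higher and 2 lower, and their sum was 42560 to 45266 at 2 months and 42448 to 43290 at 22 months. The oligodendrocyte sum was 83420 to 105946 at 2 months and 65744 to 85583 at 22 months, with 4 of 6 markers lower. Of 10 endothelial markers 1 was higher, and so were 4 of 5 striatal neuron markers. Of 9 pericyte and smooth muscle markers 2 were higher and 3 lower. All 3 markers of oligodendrocyte precursors were lower, and their sum was 1428 to 1639 at 2 months and 894 to 957 at 22 months. Cspg4 is on this list and on that of pericytes and smooth muscle, so it counts among the lower markers of both. Of all tested genes 18.4% were higher and 17.2% lower at 22 against 2 months, and these counts are read against that background. At 22 against 18 months 5 of 5 striatal neuron markers passed as higher, where 8.63% of all genes did. The part of these shifts in the Notch results was not tested.

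Beyond the 10 genes, 60 further genes of the pathway were listed by role, and 55 were tested, since Hes3, Hes7, Neurog1, Neurog2 and Atoh1 were too low. At 22 against 2 months 19 of 55 passed, 11 higher and 8 lower, near the share of all genes (35.7%), and 10 of the 19 also passed with the trend over length removed. A partly different 10 of the 19 held with any 1 library left out, among them Neurl1a, Aph1a, Psenen, Dner, Ep300, Spen, Itch and Gfap. The median log2 fold change of the 55 was -0.02, against 0.02 over all tested genes. At 6 against 2 months 0 passed in limma, where 0.926% of all genes passed. There 10 had an unadjusted limma p under 0.05, as did 2405 of all 15663 tested genes. At 18 against 6 months Gfap passed alone, where 0.153% of all genes passed. At 18 against 2 months 5 passed, where 7.28% of all genes passed, and all 5 also passed with the trend removed. At 22 against 18 months 10 passed (5 higher and 5 lower), 2 of them also with the trend removed, where 18.9% of all genes passed. At 22 against 6 months 11 passed (4 higher and 7 lower), 6 of them also with it removed, where 22.2% of all genes passed.

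Among the other receptor and ligands, Dlk1, a non-canonical ligand secreted by SVZ astrocytes, fell by 1.02 ± 0.32 on the log2 scale from 2 to 22 months (limma adjusted p = 0.0187). Dner, a neuronal Notch ligand, fell by 0.39 ± 0.10 (adjusted p = 0.00603). Both also passed with the trend removed, and the Dlk1 call was lost without replicate 3 of 2 months or replicate 2 of 22 months. Dll3, a ligand-like protein that acts inside the sending cell, was lower at both older ages against both younger ages (-0.52 ± 0.18, adjusted p = 0.0472), a call that held with 1 of the 12 libraries left out and was lost with the other 11. Notch4 and Jag2 did not pass in any comparison.

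Among the enzymes that ready the ligand, Neurl1a, a ubiquitin ligase, rose at 22 months against 2 months (0.27 ± 0.05, limma adjusted p = 0.000716) and against 18 months (0.28 ± 0.05, adjusted p = 0.00137). It was lower at 18 months than the mean of 6 and 22 months (-0.19 ± 0.04, adjusted p = 0.0405), and this turn also passed with the trend removed, though it held in 4 of the 12 fits that left out 1 library. Its relative Neurl1b was lower at 18 than at 2 months (-0.38 ± 0.10, adjusted p = 0.0229), and Mib2 was lower at 22 than at 6 months (-0.18 ± 0.06, adjusted p = 0.0440). These calls held in 8 and 5 of the 12 such fits. Of the sugar transferases that tune the receptor, Lfng, which favours Delta over Jagged signals, rose by 0.42 ± 0.12 from 2 to 22 months (adjusted p = 0.0128) and had 0.28 with the trend removed (adjusted p = 0.0885). This Lfng call was lost without replicate 2 of 2 months or replicate 3 of 22 months. At both older ages against both younger ages Lfng was higher by 0.33 (limma adjusted p = 0.0123). That call held with any 1 library left out and with the trend removed. Of 10 proteins of receptor cleavage, the gamma-secretase subunits Aph1a (0.26 ± 0.06, adjusted p = 0.00484) and Psenen (0.41 ± 0.09, adjusted p = 0.00258) rose. The short transcript of Psenen, 708 nt, had 0.08 with the trend removed (adjusted p = 0.504).

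In the nucleus, Rbpj and the Mastermind genes Maml1, Maml2 and Maml3 did not pass in any comparison. Rbpj had a log2 fold change of -0.08 at 22 against 2 months, with a 95% interval of -0.24 to 0.09. The acetyltransferase Ep300 fell by 0.43 ± 0.10 from 2 to 22 months (limma adjusted p = 0.00333), and Kat2b was lower at 22 than at 18 months (-0.24 ± 0.08, adjusted p = 0.0486). The co-repressor Spen fell by 0.61 ± 0.12 from 2 to 22 months (adjusted p = 0.000908). Ep300 and Spen have transcripts of 9566 and 12299 nt, and with the trend removed they had -0.06 and -0.12 in that comparison, where neither passed. Hdac1 was lower at 18 than at 2 months (-0.39 ± 0.09, adjusted p = 0.0148), Tle2 was lower at 22 than at 6 months (-0.27 ± 0.09, adjusted p = 0.0483), and Tle4 rose from 2 to 22 months (0.15 ± 0.05, adjusted p = 0.0397). With 1 library left out, Kat2b held its call in 3 of 12 fits, Hdac1 in 8, Tle2 in 4 and Tle4 in 6. With the trend over length removed, the calls of Kat2b and Tle2 were lost, while those of Hdac1 and Tle4 were kept.

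**Figure D5:**
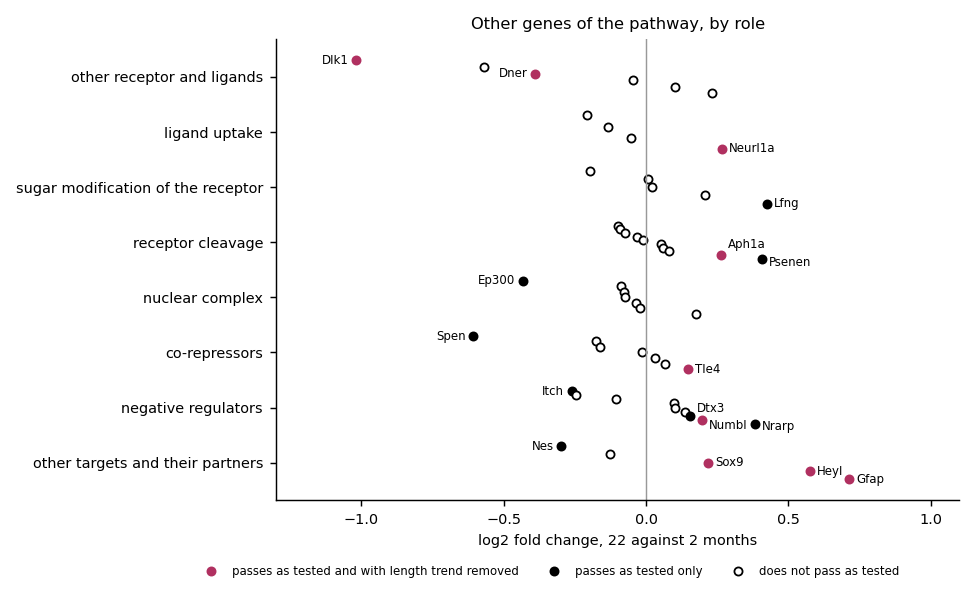
Log2 fold change at 22 against 2 months of 53 of the 55 tested further genes of the Notch pathway, grouped by role, with 1 point per gene. Filled points have a limma adjusted p under 0.05, and red ones also pass with the trend over transcript length removed, among them Gfap at 0.71, Dner at -0.39 and Dlk1 at -1.02.

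Of the negative regulators, Nrarp, a target that dampens the active receptor, rose by 0.38 ± 0.10 from 2 to 22 months (limma adjusted p = 0.00941) and had 0.26 with the trend removed (adjusted p = 0.0550). Numbl, a relative of Numb (0.19 ± 0.07, adjusted p = 0.0435), and Dtx3 (0.15 ± 0.06, adjusted p = 0.0477) were higher in the same comparison. With the trend removed Numbl, which has a transcript of 8511 nt, stood at 0.51, while the sign of Dtx3 turned to -0.02 (adjusted p = 0.834). The ubiquitin ligase Itch fell by 0.26 ± 0.06 (adjusted p = 0.00512) and had -0.15 with the trend removed (adjusted p = 0.0730). Fbxw7, which marks the intracellular domain for destruction, was lower at both older ages against both younger ages (-0.12 ± 0.04, adjusted p = 0.0467). With 1 library left out, Nrarp held its call in 10 of 12 fits, Numbl in 4, Dtx3 in 2 and Fbxw7 in 1. The Fbxw7 call was also lost with the trend removed.

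Of the further targets, Gfap, Heyl and Sox9 passed as higher and Nes as lower at 22 against 2 months, and Nes had -0.13 there with the trend removed (adjusted p = 0.278). Gfap, the filament of astrocytes and SVZ stem cells, had 1464, 1855 and 1861 normalised counts at 2 months and 1386, 1428 and 1625 at 6 months, in rising order of libraries. It had 2097, 2415 and 3241 at 18 months and 2431, 2773 and 3297 at 22 months. Every library of the older ages lay above every library of the younger ages, and Gfap rose from 6 to 18 months (0.78 ± 0.13, limma adjusted p = 0.0229). Heyl, a further Hey gene known from pericytes and smooth muscle, rose by 0.58 ± 0.19 from 2 to 22 months (adjusted p = 0.0246). Sox9, a factor of stem cells and astrocytes, rose from 18 to 22 months (0.31 ± 0.08, adjusted p = 0.0133), and Nes, a filament of neural progenitors, fell by 0.45 ± 0.09 from 2 to 18 months (adjusted p = 0.00485). With 1 library left out, the Gfap step from 6 to 18 months held in 8 of 12 fits, the Sox9 step from 18 to 22 months in 9 and the Nes fall from 2 to 18 months in 12. At 22 against 2 months Gfap (0.71 ± 0.13, limma adjusted p = 0.000755) held in 12 of 12, Nes in 10, Heyl in 9 and Sox9 in 5.

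For the 4 genes with the smallest p in the F test, the genes with the most similar course over the 12 libraries were named by Pearson correlation of log2 values. For Hey1 they were Nudt10 (0.95), Ldha (0.94) and Eif3l (0.94). For Notch1 they were Srgap2 (0.97), Zc3h12c (0.97) and Dusp18 (0.96), and for Notch2 they were Smarcad1 (0.95), Elavl2 (0.94) and Stox2 (0.94). For Dll4 they were Tfap4 (0.93), Klf2 (0.92) and Sox9 (0.90). These values describe likeness among 12 libraries that share age and length profile, and nothing about control is read from them.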

How the data were processed

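Libraries were grouped by the age in their labels, 3 per age. The authors deposited 1 table of signal values per gene and library, which are read counts divided by a size factor, and the submitters' processing notes name DESeq2 and mm10. The aligner, counting tool, annotation and strandedness are not given in the sources used here, so reads of overlapping or antisense genes could be split or shared. With a tolerance of 1e-06, 100% of the deposited signal values were whole multiples of the value of 1 read, so whole reads were recovered for the count models. 1 column, a log2 comparison deposited by the authors, was not used.

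Values were taken as log2(normalised count + 1), a scale that understates changes of low genes, for 15663 genes that reached 10 normalised counts in 3 libraries or more. All libraries were fitted together with limma 3.58.1 (eBayes, intensity trend, 8.96 prior degrees of freedom) in R 4.3.3. The Benjamini-Hochberg adjustment of two-sided p-values ran over every tested gene of a comparison, with a threshold of 0.05. Errors of fold changes are standard errors. Alternatives were edgeR 4.0.16 (quasi-likelihood), DESeq2 1.42.0, TMM scaling, a pseudocount of 5, no filter, no intensity trend, a replicate block, a fit of the compared ages alone, removal of the trend over transcript length (lowess, span 0.3) and leaving out each library. Lengths are those of the longest GENCODE M21 transcript, found for 94.8% of tested genes. Positions are RefSeq genes on GRCm38.p6, where 23666 identifiers matched.

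The named genes are all 10 Notch genes, each further pathway gene that passed in any comparison, except a few that are not reported here though they count in the totals, and, for 4 Notch genes, the 3 most similar genes. The genes and lists were chosen with earlier results of these data known.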

Additional observations from a re-analysis of the deposited data

How the results depend on the processing

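The number of Notch genes that passed at 22 against 18 months was 2 in all 9 settings tried that kept every library, and 0 passed at 6 against 2 and at 18 against 6 months in each of them. Other counts moved. The 6 that passed at 22 against 2 months became 4 under DESeq2, edgeR and no filter. With no intensity trend, 3 passed at 22 against 2 months, 0 at 18 against 2 months, 1 at 22 against 6 months and 2 at the older against the younger ages. With no filter on low values 2 passed at 22 against 6 months, and with only the compared ages in the fit 3 did. With the trend over transcript length removed, 1 passed at 22 against 2 months, 2 at 22 against 6 months and 2 at the older against the younger ages, and Notch2 at 22 against 6 months reversed to 0.0363. Why these counts moved was not tested. With 1 library left out, the counts ran from 3 to 6 at 22 against 2 months, 1 to 6 at 22 against 6 months, 1 to 3 at 22 against 18 months, 0 to 1 at 18 against 2 months, 0 to 1 for the turn at 18 months, 2 to 4 at the older against the younger ages and 2 to 5 in the F test.

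No pairing by replicate number was seen, though 3 libraries per age could miss a weak one, and the labels do not state any. Between ages, deviations of libraries with the same number correlated from -0.19 to 0.16, and those with other numbers from -0.24 to 0.14. Of 18 same-number pairs 2 were over 0.1, and 4 of 12 libraries correlated best with their own number. With the replicate block, 6 Notch genes passed at 22 against 2 months (Dll4 in, Hes1 out), 4 at 22 against 6 months, 3 at the older against the younger ages, 2 at 22 against 18 months and 1 at 18 against 2 months. A fit of the 9 younger libraries alone, an alternative added after the data were seen, gave 0, 0 and 1 (Notch1) for the comparisons among the younger ages. Of the 55 further pathway genes tested, 10 passed at 22 against 18 months, where 18.9% of all genes did. At 22 against 6 months 11 passed (22.2% of all genes), and at the older against the younger ages 14 (23.9%). With no intensity trend 4, 6 and 8 of these genes passed, and with no filter 6 did at 22 against 6 months. Their single call at 18 against 6 months and both calls for the turn at 18 months went to 0 with no filter, with no intensity trend or with only the compared ages, the turn also with the block. With the trend over length removed, 1 passed for the turn and 1 at 6 against 2 months. In the F test 17 of the 55 passed, where 31.5% of all genes did, and 10 passed with no intensity trend. These shares of all genes are those of the main fit. The depth limits Hes1 and Dll4 most, with 24 to 62 reads per library.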
